A study of Homo sapiens with 6 samples.

Results

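The BCL2 family of apoptosis regulators was examined in HCT116 cells that the labels describe as miR-196b overexpressing, set against cells with an empty vector. The genes were taken as the probe sets whose symbol in the platform annotation is 1 of 10 listed names: BCL2, BCL2L1, BCL2L2, MCL1, BCL2L11, BAK1, BID, BAD, BIK and BMF. Of these, 9 genes were found with 10 probe sets, out of 14884 genes and 16098 probe sets with a symbol, and BCL2L2 had no probe set under its symbol and was not analysed here. BMF had 2 probe sets, and the brighter one stands for the gene unless both are given.

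HCT116 is an established human colorectal carcinoma line, whose name some labels write as HTC116. Both groups were stably transduced and grown in the same medium, and each held 3 arrays: the 3 labelled as overexpressing miR-196b, and the 3 with the empty vector (control). Within a group the arrays are called biological replicates. Whether each came from its own transduction, and whether the lines were clones or pools, is not given in the sources used here, so the p-values cover only the spread between the cultures sampled. Total RNA was hybridised to whole-transcript arrays, and each value is a log2 signal of 1 probe set on 1 array. A difference of 1 on this scale is a factor of 2 in signal. Levels of different probe sets are ranked only as a rough guide to bright and dim sets, because each set binds with its own strength.

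Cells die by mitochondrial apoptosis when the effector proteins BAK1 and BAX open the outer membrane of the mitochondrion and cytochrome c escapes. The anti-apoptotic proteins BCL2, BCL2L1, BCL2L2 and MCL1 hold the effectors in check, and the BH3-only proteins BCL2L11, BID, BAD, BIK and BMF bind and disable these guardians or, for some, switch on the effectors directly. Much of this control acts on the proteins, by cleavage, phosphorylation and degradation, which an RNA array does not read.

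The microRNA of the series acts through its seed, bases 2 to 8 of the mature strand, which pairs with sites in messenger RNAs. The miR-196b strand is shown because the labels name it, and the miR-196a strand because the genes that encode it are read below as well. They are given from RefSeq (GRCh38.p14), 5′ to 3′, with the seed in capitals. The miR-196b-5p strand lies at chr7:27169528-27169549 on the minus strand, and the miR-196a-5p strand of MIR196A2 at chr12:53991762-53991783 on the plus strand.
hsa-miR-196b-5p: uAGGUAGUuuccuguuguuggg
hsa-miR-196a-5p: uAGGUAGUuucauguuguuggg
Both have 22 bases and the same seed, and the base change between them is C12A, counted from the 5′ end with the miR-196b base first. Sites for this seed in the BCL2 family transcripts were not examined here.

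The labels were checked first. The MIR196B probe set, which reads precursor transcripts, was at 8.05 ± 0.144 in the arrays labelled miR-196b and 7.97 ± 0.102 in control (log2 signal, SD, n = 3 each; limma adjusted p = 0.819), so it did not show the labelled overexpression. The probe set of MIR196A2, whose mature strand shares the seed, was at 10.6 ± 0.149 in the labelled arrays and 3.06 ± 0.167 in control (limma adjusted p = 4.53e-07). Of the genes in the series title, GALNT5 had a log2 change of -1.09 (limma adjusted p = 0.0233) and HOXB7 of -0.64 (0.0974). MIR196A1, the remaining gene of the microRNA family, had a log2 change of -0.27 (limma adjusted p = 0.622). Every change below is the labelled arrays minus control, so a positive one means higher in the arrays labelled miR-196b. Of 8 epithelial markers, 7 were measured, 3 higher and 4 lower, and 0 passed the test, beside 0.0559% of all named probe sets. The groups did not overlap for 3 of the 7, beside 17.2% of all named probe sets. These were KRT18 (log2 change -0.22, limma adjusted p = 0.405), CDX2 (-0.26, 0.481) and CLDN4 (0.28, 0.504). A dimmer KRT18 probe set had overlapping groups (-0.10, limma adjusted p = 0.699). EPCAM was at 10.9 in the labelled arrays and 11.0 in control. Of the 7 measured epithelial markers, 6 lay above the dimmest 40% of named probe sets, VIL1 being the exception. Of the 7 measured markers of fibroblasts (2 of 6 listed), blood (2 of 6) and endothelium (3 of 4), 0 did. Across named probe sets, the arrays correlated at 0.994 to 0.995 within groups and 0.992 to 0.994 between groups.

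No BCL2 family member passed the test between the groups, in either direction. Of the 9 measured genes, 0 passed the test over all named probe sets (limma, adjusted p below 0.05), where 9 of 16098 probe sets passed, or 0.0559%. At an unadjusted p below 0.05, 0 of 9 passed, against 9.87% of all named probe sets. The 3 labelled and the 3 control arrays overlapped for each of the 9 genes, whereas 17.2% of all named probe sets had groups that did not overlap. These 9 genes are few, and a share of 17.2% would be between 1 and 2 of them. On the deposited scale 3 members were higher and 6 lower, with changes of -0.24 (BIK) to 0.15 (BMF) and a median of -0.07, beside a median of 0.0069 over all named probe sets. With each array centred on its median, 4 were higher and 5 lower, because BCL2L11 lies at 0.

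The 95% interval of each of the 9 changes spanned 0 and stayed within 1.5-fold in either direction (0.58 on the log2 scale). Over all named probe sets, 88.1% had intervals within 1.5-fold, whether or not these spanned 0, so intervals of this width were common on the array. Changes smaller than these intervals are not settled by 3 arrays per group. In bulk RNA, fewer cells with a transcript and less transcript per cell cannot be told apart.

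**Figure D1:**
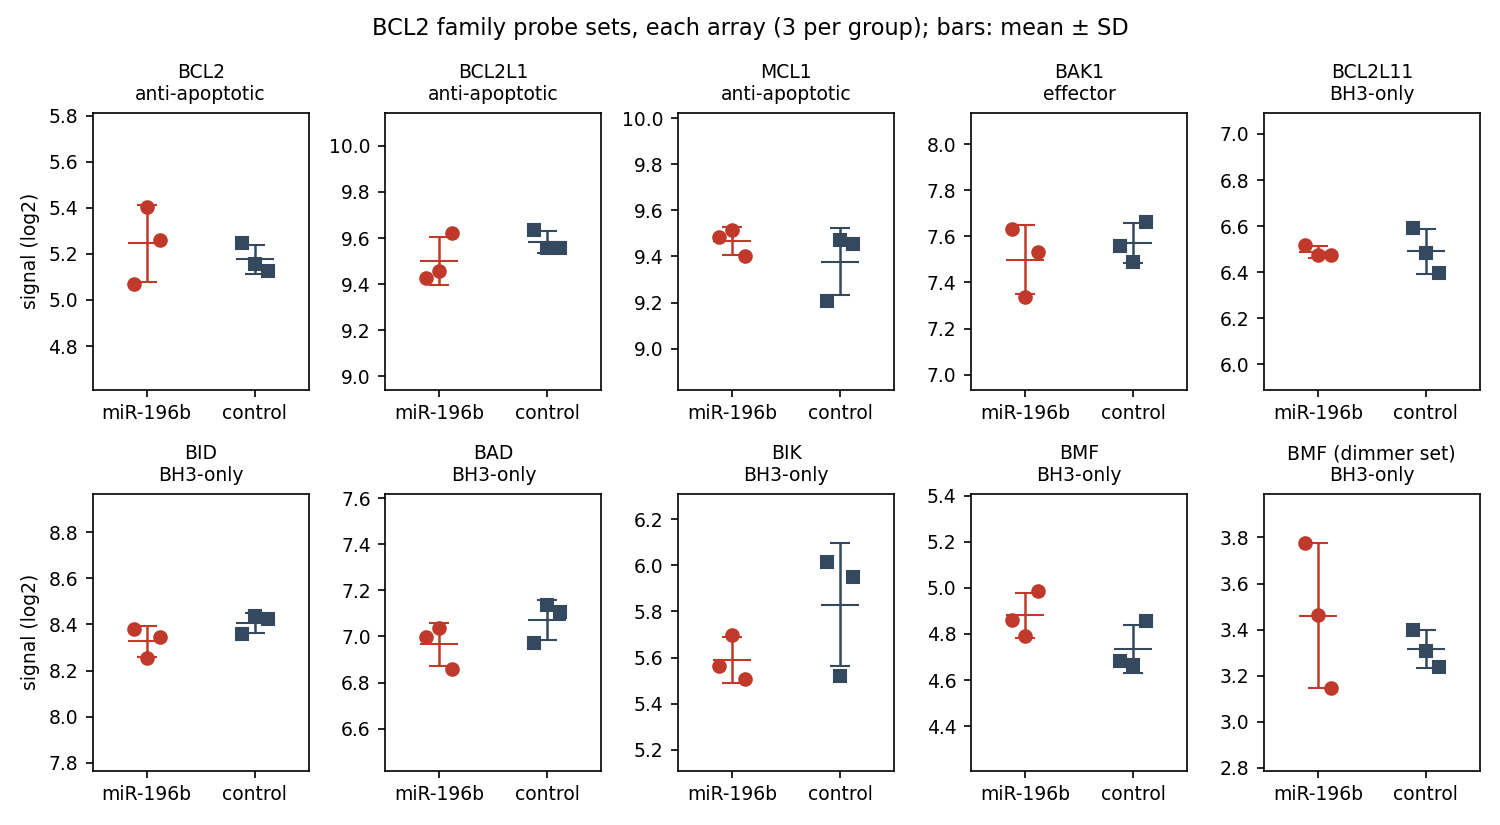
Log2 signal of the 10 BCL2 family probe sets on each array, with the arrays labelled miR-196b left (red circles) and the empty-vector control right (dark squares), and the mean ± SD as bars (n = 3 each). Every panel spans the same height of 1.2 log2 units around its own centre, and in each panel the 2 groups overlap.

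Among the anti-apoptotic genes, MCL1 encodes a short-lived guardian that binds both BAK1 and BH3-only proteins. Its signal was 9.48, 9.51 and 9.40 in the labelled arrays, against 9.21, 9.47 and 9.45 in control. Only control replicate 1 lay apart, below the other 5 arrays, and the other 2 control arrays lay within the range of the labelled ones. This gave a log2 change of 0.09 (95% interval -0.13 to 0.31, limma adjusted p = 0.779).

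BCL2L1 encodes BCL-xL, and its splice forms are not told apart by 1 value per probe set. It was at 9.43, 9.46 and 9.62 in the labelled arrays, against 9.64, 9.56 and 9.56 in control. Labelled replicates 1 and 2 were the lowest of the 6, while labelled replicate 3 lay inside the control range. BCL2L1 thus had a log2 change of -0.08 (95% interval -0.27 to 0.11, limma adjusted p = 0.766).

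BCL2, the founding member of the family, was read as 5.07, 5.40 and 5.26 in the labelled arrays, against 5.25, 5.16 and 5.12 in control. The labelled arrays held both the highest and the lowest value, with an SD of 0.168, against 0.0634 in control (n = 3 each). The log2 change was 0.07 (95% interval -0.17 to 0.31, limma adjusted p = 0.848), and without labelled replicate 2 it was -0.011.

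The effector BAK1, which sits in the outer mitochondrial membrane, was at 7.63, 7.33 and 7.53 in the labelled arrays, against 7.56, 7.49 and 7.66 in control. Labelled replicate 2 was the lowest array and the other 2 lay within the control range. The difference of the means was -0.07 on the log2 scale (95% interval -0.31 to 0.16, limma adjusted p = 0.837), and without labelled replicate 2 it was 0.011.

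Of the BH3-only genes, BIK had the largest log2 change of the family members in size. Its protein resides mainly at the endoplasmic reticulum and binds the anti-apoptotic proteins. BIK was at 5.56, 5.70 and 5.51 in the labelled arrays, against 6.01, 5.52 and 5.95 in control. Control replicates 1 and 3 stood above all labelled arrays, and control replicate 2 lay among them. The log2 change was -0.24 with an SE of 0.14 (95% interval -0.57 to 0.09, limma adjusted p = 0.601). Leaving out control replicate 2 gave -0.39, the lowest value with any array left out, and still no call (limma adjusted p = 0.516). The within-group SD of BIK was 0.202, the highest among the 9 genes.

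BMF, whose protein is held at the cytoskeleton by a dynein light chain until it is released, was the BH3-only gene with a higher mean. The brighter probe set was at 4.86, 4.79 and 4.99 in the labelled arrays, against 4.68, 4.66 and 4.85 in control. Control replicate 3 lay above labelled replicate 2, so the groups overlapped. Its log2 change was 0.15 (95% interval -0.06 to 0.36, limma adjusted p = 0.623). The dimmer probe set was at 3.78, 3.46 and 3.15 in the labelled arrays, against 3.40, 3.31 and 3.24 in control. It had the same log2 change of 0.15 with a wider interval (-0.22 to 0.51, limma adjusted p = 0.777), and -0.011 without labelled replicate 1. Both BMF probe sets lay among the dimmest 40% of named probe sets by mean signal, while the other 8 genes lay above that level.

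BAD is kept inactive by phosphorylation and binding to 14-3-3 proteins. It was at 7.00, 7.04 and 6.86 in the labelled arrays, against 6.97, 7.14 and 7.10 in control, where control replicate 1 fell between labelled values. BAD had a log2 change of -0.11 (95% interval -0.31 to 0.10, limma adjusted p = 0.706).

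BID carries the death-receptor signal to the mitochondrion once caspase-8 has cleaved it. It was at 8.38, 8.25 and 8.34 in the labelled arrays, against 8.36, 8.44 and 8.42 in control, and labelled replicate 1 lay above control replicate 1. For BID this was a log2 change of -0.08 (95% interval -0.25 to 0.09, limma adjusted p = 0.747). Its within-group SD of 0.0556 was the lowest of the 9.

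BCL2L11 encodes BIM, which can bind all the main guardians. It was at 6.52, 6.47 and 6.47 in the labelled arrays, against 6.59, 6.48 and 6.40 in control, so the labelled values lay inside the control range. The log2 change was -0.0025 (95% interval -0.19 to 0.18, limma adjusted p = 0.993), the value nearest to 0 among the 9.

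No single array stood apart over the family as a whole. The highest value of the 6 fell in the labelled arrays for 3 of the 9 genes and in control for 6, and the lowest in the labelled arrays for 6 and in control for 3. Each array was lowest for 1 or 2 genes, and each was highest for 0 to 3. The median within-group SD of the members was 0.102, beside 0.128 over all named probe sets.

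BIK, with the smallest unadjusted p of the family, was also set against all other named probe sets by Pearson correlation of the signal over the 6 arrays. The 3 most alike were C12orf54 (r = 0.982) and a pair of SNAR-C1 probe sets with identical values (r = 0.977). With 6 arrays, 105 among the 16098 named probe sets reached r above 0.9, so an r above 0.9 is not particular to these 3. None of the 3 passed the test (log2 changes of -0.15, -0.18 and -0.18). The log2 change of BIK itself was -0.24.

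**Figure D2:**
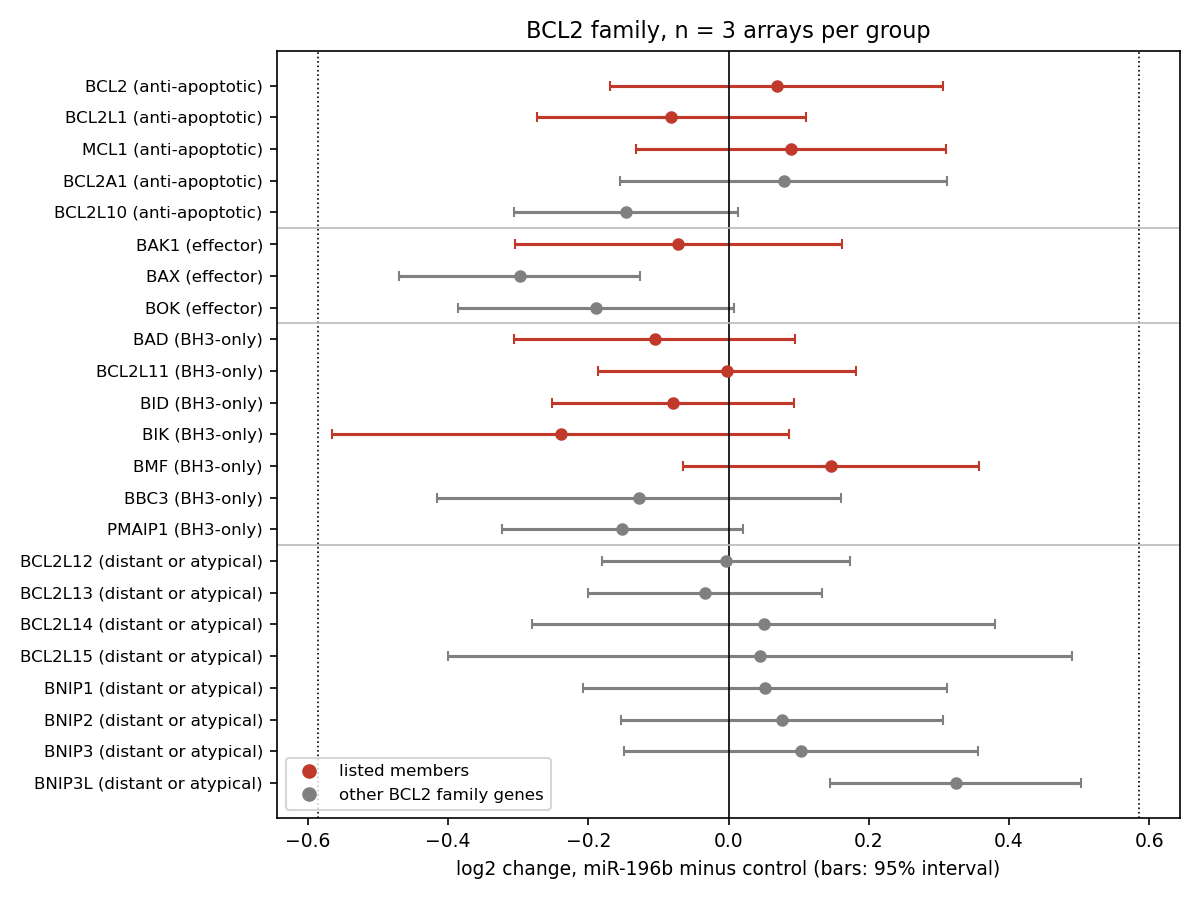
Log2 change (arrays labelled miR-196b minus control) with its 95% interval for the 9 measured members (red) and 14 further BCL2 family genes (grey), ordered by role, n = 3 arrays per group. Dotted lines mark 1.5-fold in either direction, within which every interval lies. Of the 23, the intervals of BAX and BNIP3L leave out 0.

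The rest of the family was read in the same fit, and HRK, of 15 further genes, was not analysed here for want of a probe set under its symbol. Of the 14 measured, 7 were higher and 7 lower (8 and 6 with median centring), 0 passed the test, and the median log2 change was 0.02. The groups did not overlap for 5 of the 14, beside 17.2% of all named probe sets, and 2 of the 14 had an unadjusted p below 0.05, beside 9.87%.

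BAX, the effector that works beside BAK1, was at 7.70, 7.61 and 7.60 in the labelled arrays, against 7.89, 7.91 and 7.99 in control. All labelled arrays lay below all control arrays. BAX had a log2 change of -0.30 (95% interval -0.47 to -0.13) and did not pass over all named probe sets (limma adjusted p = 0.352). An exact two-sided permutation test gave p = 0.1, which is the lowest value possible with 3 arrays on each side. Any gene whose groups do not overlap gets this value, so it adds nothing to the separation.

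BOK, the remaining effector, was at 7.86, 7.76 and 7.65 in the labelled arrays, against 7.93, 8.01 and 7.90 in control, also without overlap. Its log2 change was -0.19 (limma adjusted p = 0.507). The BH3-only gene PMAIP1, which encodes NOXA, a partner of MCL1, was at 8.16, 8.20 and 8.23 in the labelled arrays, against 8.39, 8.27 and 8.38 in control, with a log2 change of -0.15 (limma adjusted p = 0.539). BBC3, which encodes the p53-induced protein PUMA, had overlapping groups and a log2 change of -0.13 (limma adjusted p = 0.755).

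Over both sets of genes, the effectors BAK1, BAX and BOK had negative changes, and so did 6 of 7 measured BH3-only genes, BMF being the exception. Together these are 9 of 10 effector and BH3-only genes lower, with a median log2 change of -0.12 and 0 of 10 past the test. With median centring 8 of 10 were lower, as BCL2L11 turned. This tally leaves out the 8 distant or atypical relatives, BNIP3 and BNIP3L among them, of which 6 were higher and 2 lower. Over all named probe sets, 48.0% were lower on the deposited scale and 45.6% with median centring. Of the 5 measured anti-apoptotic genes, 3 were higher and 2 lower, with a median of 0.07. BCL2A1 had 0.08 and BCL2L10 -0.15, the latter with groups that did not overlap. Both were among the dimmest 40% of probe sets, and 0 of the 5 passed. Whether pro- and anti-apoptotic genes differ was not tested.

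Among the distant or atypical relatives, BNIP3L, a receptor for the removal of mitochondria, was at 10.77, 10.83 and 10.93 in the labelled arrays, against 10.55, 10.47 and 10.54 in control. The groups did not overlap, the log2 change was 0.32 (95% interval 0.14 to 0.50), and it did not pass (limma adjusted p = 0.343). Its relative BNIP3 had a log2 change of 0.10 with overlapping groups. BNIP1 was at 0.05, BNIP2 at 0.08 (-0.06 at a dimmer probe set), BCL2L12 at -0.0041, BCL2L13 at -0.03, BCL2L14 at 0.05 and BCL2L15 at 0.04, all log2 changes with an adjusted p of 0.775 or above in limma.

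**Figure D3:**
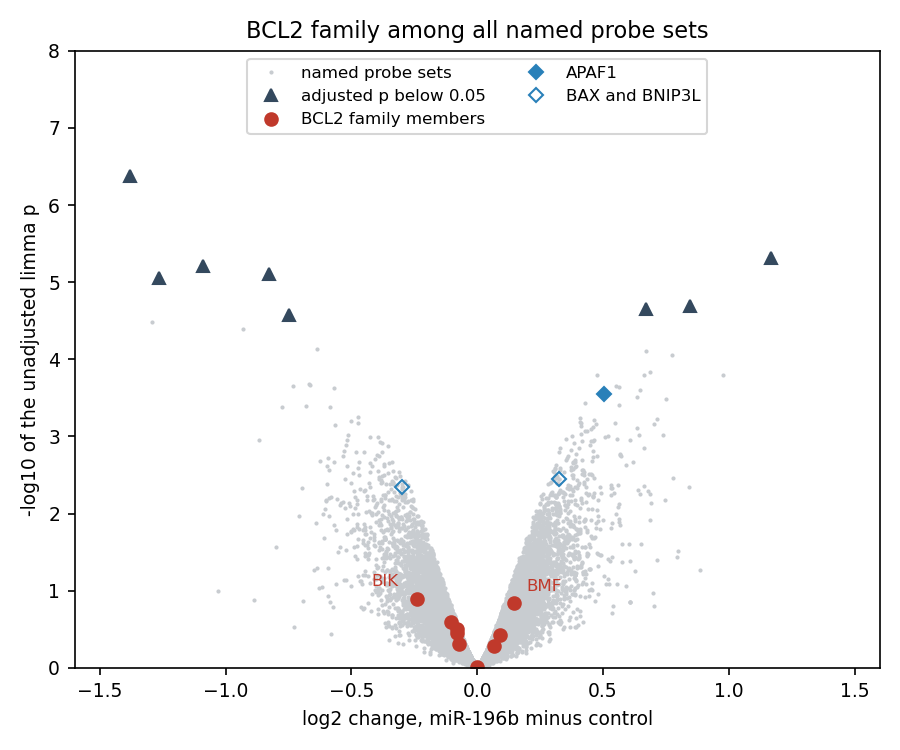
Log2 change (arrays labelled miR-196b minus control) against -log10 of the unadjusted limma p for the named probe sets (grey), with the 9 BCL2 family members in red, APAF1 as a filled blue diamond, and BAX and BNIP3L as open ones. Triangles pass at an adjusted p below 0.05. MIR196A2, at a log2 change of 7.55, lies outside the plot. The members sit at the foot of the cloud, with BIK and BMF highest among them.

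The genes that work next to the family were covered by 5 further lists. No gene of the caspase list (9 genes) had a probe set under its symbol, so the proteases that carry out apoptosis were not analysed here. With the 14 relatives above, the lists held 32 measured genes of 70, of which 14 were higher and 18 lower (16 each with median centring), and 0 passed (limma, beside 0.0559% of all named probe sets). At an unadjusted p below 0.05, 4 passed, beside 9.87%, and the groups did not overlap for 9, beside 17.2%.

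APAF1 had the largest change of these. It builds the apoptosome, the complex that activates caspase-9 once cytochrome c is released. APAF1 was at 7.97, 7.91 and 7.99 in the labelled arrays, against 7.37, 7.54 and 7.44 in control. All labelled arrays lay above all control arrays, and the spread within a group (SD 0.0424 in the labelled arrays and 0.0865 in control, n = 3 each) was small beside the difference. The log2 change was 0.50 with an SE of 0.08 (95% interval 0.32 to 0.69), or 1.42-fold in signal, and did not pass over all named probe sets (limma adjusted p = 0.173). APAF1 did pass once the dimmest 40% of probe sets were left out (limma adjusted p = 0.0405). It also passed under a variance prior with trend and robust fitting (limma adjusted p = 0.00571). In these settings 22 of 9659 and 91 of 16098 named probe sets passed, against 9 of 16098 as reported. In 12 of the 14 alternatives APAF1 did not pass. Its adjusted p lay between 0.00571 and 0.493 over the alternatives. The other measured genes of its list were HTRA2, a mitochondrial protease (-0.11), and ENDOG, a mitochondrial nuclease (-0.08), both with overlapping groups.

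SFN, a 14-3-3 protein of epithelial cells that binds phosphorylated partners, was at 10.69, 10.72 and 10.56 in the labelled arrays, against 11.00, 10.88 and 10.98 in control. The groups did not overlap, and the log2 change of -0.30 (95% interval -0.49 to -0.11) did not pass (limma adjusted p = 0.360). Of the 7 measured direct regulators, 2 were higher and 5 lower on the deposited scale (1 and 6 with a repeated quantile normalization), with a median of -0.07. VDAC1 and VDAC3, channels of the outer mitochondrial membrane, both had log2 changes of -0.07, and the chaperone partner BAG1 had -0.09.

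Of the inhibitors of apoptosis, 5 of 7 were measured, with 3 higher, 2 lower (4 and 1 with median centring) and a median log2 change of 0.04. The ubiquitin ligase BIRC2 had 0.13, BIRC5, also called survivin and needed in mitosis, 0.04, BIRC7 0.04, and the caspase inhibitor XIAP -0.05, all with overlapping groups. Of the death-receptor list, 3 of 12 were measured. The adaptor FADD had a log2 change of 0.08 (0.08 at a dimmer probe set as well). TRADD had -0.17 and CFLAR, an inhibitor of caspase-8 activation, -0.09, both with groups that did not overlap and neither past the test (limma adjusted p = 0.553 and 0.690).

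**Figure D4:**
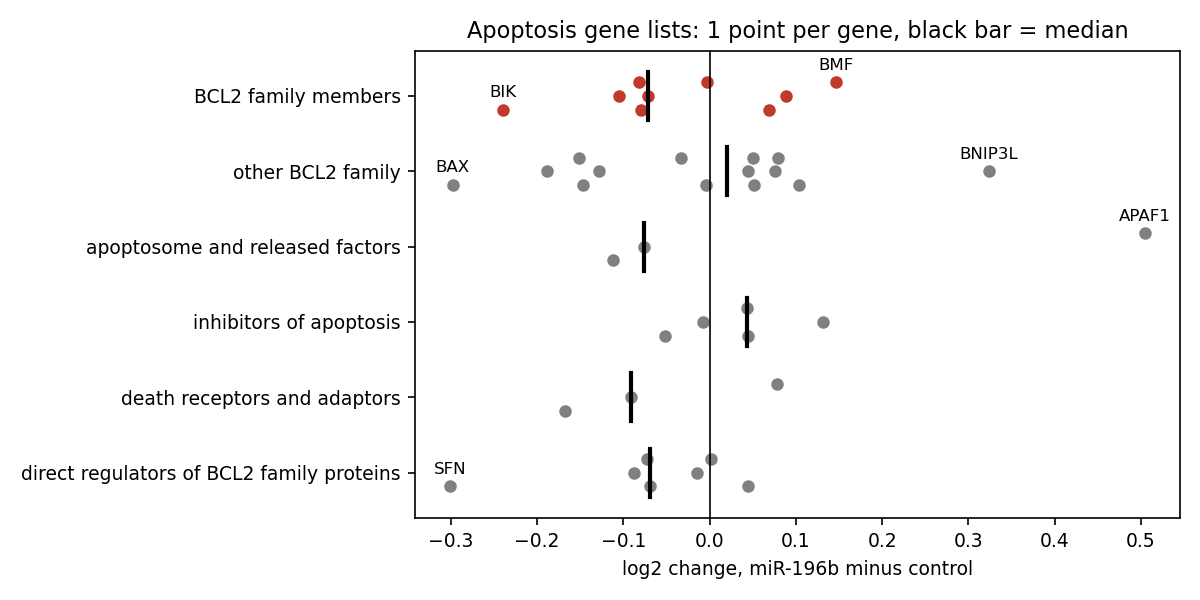
Log2 change (arrays labelled miR-196b minus control) of each measured gene of the BCL2 family and of the apoptosis lists, 1 point per gene, with each list's median as a black bar. The red points of the listed members lie between -0.24 (BIK) and 0.15 (BMF), and APAF1 at 0.50 stands farthest from 0 of all genes shown.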

How the data were processed

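The deposited table gives a log2 signal for each probe set on each array. Per the submitters' processing notes, RMA and Partek 6.6 were used, without further detail. RMA includes a quantile normalization, which removes differences in overall level. RMA returns log2 values, and base 2 was assumed on that ground. Array medians lay between 4.34 and 4.37. No genome build is given in the sources used here.

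Probe sets were named through the platform annotation, with symbols updated through gene identifiers to GRCh38.p14. Of 53617, 16098 had 1 symbol, 0 several, and 37519 were unnamed here. The named ones were fitted in R 4.3.3 with limma 3.58.1 (lmFit, eBayes, no filter), with Benjamini-Hochberg adjustment over all 16098 at 0.05. The fit was tested on simulated data.

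The members and gene lists were chosen with earlier results of these data known. All members and the other BCL2 family genes are named, and from each further list up to 4 genes with the smallest p. APAF1, BAX, BNIP3L and SFN were followed across alternatives after their values were seen. A gene with several probe sets is represented by its brightest. Alternatives were a filter, variance priors, rescaling, array weights, a replicate block, all probe sets, and each array left out. No batch information was used here.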

Additional observations from a re-analysis of the deposited data

How the results depend on the processing

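The count of BCL2 family members past the test was 0 under each of the 14 alternatives tried. Over these, 1 to 91 of all named probe sets passed, out of 16098, or 9659 with the dimmest left out. With shares this low, 0 of 9 genes was likely in each setting and tells little about the members. Among 139 refits of member probe sets, 0 were called (lowest limma adjusted p = 0.456) and 131 kept their direction. BCL2L11 changed sign with median centring (0.0064) and array weights (0.012). With 1 array left out, log2 changes ranged from -0.011 to 0.16 for BCL2, from -0.14 to 0.011 for BAK1, from -0.050 to 0.048 for BCL2L11 and from -0.011 to 0.30 for the dimmer BMF probe set. The sign turned without labelled replicate 2 for BCL2, BAK1 and BCL2L11. It also turned without labelled replicate 3 or control replicate 1 for BCL2L11, and without labelled replicate 1 for the dimmer BMF probe set. Of the wider apoptosis genes, 1 passed without the dimmest 40% of probe sets (APAF1) and 3 with a trended, robust variance prior (APAF1, BNIP3L and SFN), against 0 as reported. The 9 calls over all named probe sets became 22 and 91 under the same settings, 5 without variance moderation, 2 when unnamed probe sets were tested too, and 2 to 3 with an array left out. The cause was not tested, except that fewer probe sets or arrays enter the first and last of these fits. The replicate block gave 1 call over all named probe sets and 0 among the members. Same-numbered arrays hardly deviated together (correlations of 0.0305, 0.0369 and 0.0085 across probe sets). Labelled replicates 1 and 2 correlated best with the control array of their own number, and labelled replicate 3 with control replicate 1 (0.0198). With values this small, the numbers were not taken as pairs. The number of arrays limits the precision.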
